A study of Mus musculus with 14 samples.

Results

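The canonical histone genes were read from total RNA of mouse liver. Members were chosen by symbol, as every row of the deposited expression table whose symbol began with Hist1h, Hist2h, Hist3h or Hist4h, which gave 68 of 22850 rows. The 14 livers came from C57BL/6N mice placed on their diets at 7 weeks of age. In 5 livers of the group called HFWD+sugar the mice had eaten a high-fat Western diet with 40% of energy from fat and had drunk water with 42 g/L of sugar, 55% of it fructose and 45% sucrose. In 5 livers of the group called HFWD the mice had eaten the same diet without the sugar, and in 4 livers of the chow group a standard diet with about 12% of energy from fat. The labels used here give no sex, no time on the diet and no statement that each library came from an animal of its own, so p-values measure the spread between these samples. The study asked what liquid sugar adds to the liver transcriptome in this diet model of fatty liver disease.

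Histones package DNA. An octamer of the core histones H2A, H2B, H3 and H4 forms the nucleosome, and a linker histone of class H1 sits on the DNA where it enters and leaves. The genes named here are mostly replication-dependent: they are transcribed chiefly in S phase, lack introns in their coding part, and end their mRNA in a conserved stem-loop instead of a poly(A) tail. Such mRNAs are largely lost when libraries are made from poly(A) RNA, whereas these libraries were made from total RNA after removal of ribosomal RNA. Most hepatocytes of an adult liver are outside the cell cycle, and in such cells replication-dependent histone mRNAs are normally scarce.

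Values are the authors' normalized expression, in units of their own scale, with a floor of exactly 1 that stands for no or almost no reads. The worth of 1 read, taken as the commonest low value of a library, was 2.47 to 3.11 units in HFWD+sugar livers, 2.64 to 4.15 in HFWD livers and 2.56 to 6.85 in chow livers, the highest in chow 4. A histone row below about 10 units therefore rests on a few reads. The total of a library divided by this step ran from about 3770000 to 9340000 over the 14 livers, which need not be the number of reads sequenced. The step is approximate: of the low values of a library, 56.7% to 70.5% were whole multiples of it. Some values were smaller, such as 1.55 units of Hist3h2a in HFWD+sugar 1, where the step was 3.11. How such fractions arose was not tested. Each name stands for a row of the table and not always for its gene: the row of Alb, the gene of albumin, the main plasma protein made by hepatocytes, averaged 3036 units. Rassf6, on the opposite strand near Alb, averaged 683498. The other 7 hepatocyte markers (Apoa1, Ttr, Apob, Cps1, Cyp2e1, Tat and Tdo2) averaged 799.6 to 7590 units, so liver markers were present. Counting may have mixed strands or copies, because neither the strand setting nor the treatment of reads with several matches is given in the sources used here. The part of either in the histone levels was not tested.

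The hairpin at the end of the mRNA is shown first, because it defines the class of transcript that total RNA makes visible. Of 66 members with an annotated stop codon, 51 had a perfect hairpin (a stem of 6 base pairs around a loop of 4 bases) within 100 bases after the stop in the mm9 genome, in 5 different spellings, of which 38 members shared the commonest. One member of each spelling is printed, 5′ to 3′ on the strand of the gene, with the stem and loop in capitals.
Hist1h1d stem-loop, mm9 chr13:23647651-23647676, plus strand: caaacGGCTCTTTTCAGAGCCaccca
Hist1h4b stem-loop, mm9 chr13:23849230-23849255, plus strand: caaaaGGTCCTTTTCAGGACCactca
Hist1h4d stem-loop, mm9 chr13:23673814-23673839, plus strand: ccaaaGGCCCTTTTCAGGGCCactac
Hist2h2ac stem-loop, mm9 chr3:96024336-96024361, minus strand: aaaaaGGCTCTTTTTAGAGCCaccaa
Hist1h4i stem-loop, mm9 chr13:22132830-22132855, minus strand: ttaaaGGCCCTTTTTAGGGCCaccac
No perfect hairpin was found in this window for 15 members, among them the linker histone row Hist1h1t and the rows Hist2h2bb, Hist1h3f, Hist1h2bl, Hist1h2bb and Hist1h2an. A hairpin with a mismatch would not have been counted. Of the rows called below in HFWD+sugar against chow, 3 were among 32 tested rows with a hairpin and 4 among 11 without. In HFWD against chow these counts were 2 of 32 and 0 of 11, and the difference between the sets was not tested. The Hist1h1d row, of 3821 bases, runs on past its hairpin. Whether the reads of a row came from mRNA that ends in a hairpin was not tested.

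Promoters are shown for rows that were called against chow below. RefSeq promoters (GRCm38.p6, from 250 bases before to 50 after the start) matched 60 of the 68 members by symbol or synonym. On either strand, the TATA box TATAAA stood in 35 of the 60, or 58.3%, against 13.6% of 32851 promoters. The CCAAT box, CCAAT, stood in 51, or 85%, against 37.4%, and in each matched member of classes H1, H2A, H2B and H3 but in 3 of 12 of class H4. The octamer ATTTGCAT, which binds OCT1 (Pou2f1), stood in 13 members, 7 of class H2A and 6 of class H2B, or 21.7%, against 1.74%. A base could count toward more than 1 motif. The 250 bases before the start are printed 5′ to 3′ on the strand of the gene, with matches to these 3 motifs on either strand in capitals.
Hist1h2bp promoter, GRCm38.p6 chr13:21787238-21787487, plus strand: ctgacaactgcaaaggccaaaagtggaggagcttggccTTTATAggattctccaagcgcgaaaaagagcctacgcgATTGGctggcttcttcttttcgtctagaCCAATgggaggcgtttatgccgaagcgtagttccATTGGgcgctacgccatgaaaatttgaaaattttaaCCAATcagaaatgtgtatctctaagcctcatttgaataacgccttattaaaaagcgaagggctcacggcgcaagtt
Hist1h2bl promoter, GRCm38.p6 chr13:21716184-21716433, minus strand: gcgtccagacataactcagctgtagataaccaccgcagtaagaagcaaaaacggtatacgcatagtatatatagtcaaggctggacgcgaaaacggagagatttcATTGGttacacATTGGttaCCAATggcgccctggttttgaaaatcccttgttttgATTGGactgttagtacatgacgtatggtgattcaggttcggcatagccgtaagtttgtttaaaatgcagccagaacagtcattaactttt
Hist1h1a promoter, GRCm38.p6 chr13:23763418-23763667, plus strand: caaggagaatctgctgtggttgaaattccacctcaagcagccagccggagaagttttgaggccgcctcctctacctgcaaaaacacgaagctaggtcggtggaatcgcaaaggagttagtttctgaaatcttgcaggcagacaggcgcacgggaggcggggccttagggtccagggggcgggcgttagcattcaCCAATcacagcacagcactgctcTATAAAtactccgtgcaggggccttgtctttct
Hist1h4i promoter, GRCm38.p6 chr13:22041363-22041612, minus strand: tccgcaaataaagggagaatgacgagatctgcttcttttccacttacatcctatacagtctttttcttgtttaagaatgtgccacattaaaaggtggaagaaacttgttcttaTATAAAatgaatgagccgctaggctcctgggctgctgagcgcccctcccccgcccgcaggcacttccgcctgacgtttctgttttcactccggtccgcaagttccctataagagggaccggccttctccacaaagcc
The first of these also lies before Hist1h2an, which is read the other way, and its single TATA match points toward Hist1h2an. It held 4 CCAAT matches, as did the promoter of Hist1h2bl, which had no TATA match. The Hist1h1a promoter held 1 CCAAT and 1 TATA match and that of Hist1h4i 1 TATA match. A match is a description of letters and not a bound site.

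Few of the 68 rows carried most of the signal. Over the 14 livers, 10 rows averaged at least 100 units, 16 averaged 10 to 100 and 42 averaged below 10. Of all members, 24 were above the floor in every liver and 8 in none of them: Hist1h2aa, Hist1h2ag, Hist1h2al, Hist1h2ao and Hist1h2ap of class H2A, Hist1h2ba of class H2B, Hist1h3b and Hist1h4m. Hist1h2ba and Hist1h2aa are known as testis histones. By class, the median level per kb of exon was 119 units for the 6 H1 rows, 3.21 for the 19 H2A rows, 13.3 for the 18 H2B rows, 2.35 for the 12 H3 rows and 5.20 for the 13 H4 rows, over the members with an annotated length. Before division by length, these medians were 103, 2.99, 12.6, 1.24 and 1.82 units in the same order. Those of H2A, H3 and H4 lie near the floor, and their values per kb depend on length. Hist1h2ag, at the floor in every liver, comes to 2.12 units per kb. By cluster, 55 members lay in Hist1 on chromosome 13, 10 in Hist2 on chromosome 3, 2 in Hist3 on chromosome 11 and 1 in Hist4 on chromosome 6. The 37 members on the plus strand had a median of 19.96 units per kb and the 31 on the minus strand one of 4.49. Before division by length, these medians were 14.8 and 2.40 units, the second of them near the floor.

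Linker histones of class H1 lead the list. Hist1h1t (ENSMUSG00000036211, mm9 chr13:23787680-23788588, plus strand) is known as the linker histone of the testis, yet its row was the highest of all members. It had 3656, 3887, 4137, 3908 and 3844 units in HFWD+sugar livers, 3994, 3863, 3841, 4011 and 4105 in HFWD livers and 3529, 3914, 3077 and 4233 in chow livers. The diets overlapped, and every liver lay within 3077 and 4233 units. Hist1h1d (ENSMUSG00000052565, mm9 chr13:23646901-23650721, plus strand), a linker histone of many tissues, had 3628, 4103, 3575, 3736 and 4042 units in HFWD+sugar livers, 3559, 3557, 4834, 3746 and 3810.4 in HFWD livers and 2472, 3310.3, 3472 and 2716 in chow livers. Each liver on a Western diet, with or without sugar, was above each chow liver. Together these rows made up 62.5% to 70.2% of the summed level of the members in HFWD+sugar livers, 66.1% to 71.3% in HFWD livers and 66.7% to 69.3% in chow livers. Per kb of exonic length, Hist1h1t averaged 4243 units, Hist1h4b 2292, Hist1h1d 945 and Hist1h4d 592. Within 10 kb of Hist1h1t on the other strand lay Hist1h4c at 1.34 kb, with a mean of 4.09 units, and Hfe, a gene of iron control, at 5.31 kb, with a mean of 30.9. Hist1h1t was unique in the genome along its whole length, in windows of 100 bases, and Hist1h1d in 98.4% of them.

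**Figure D1:**
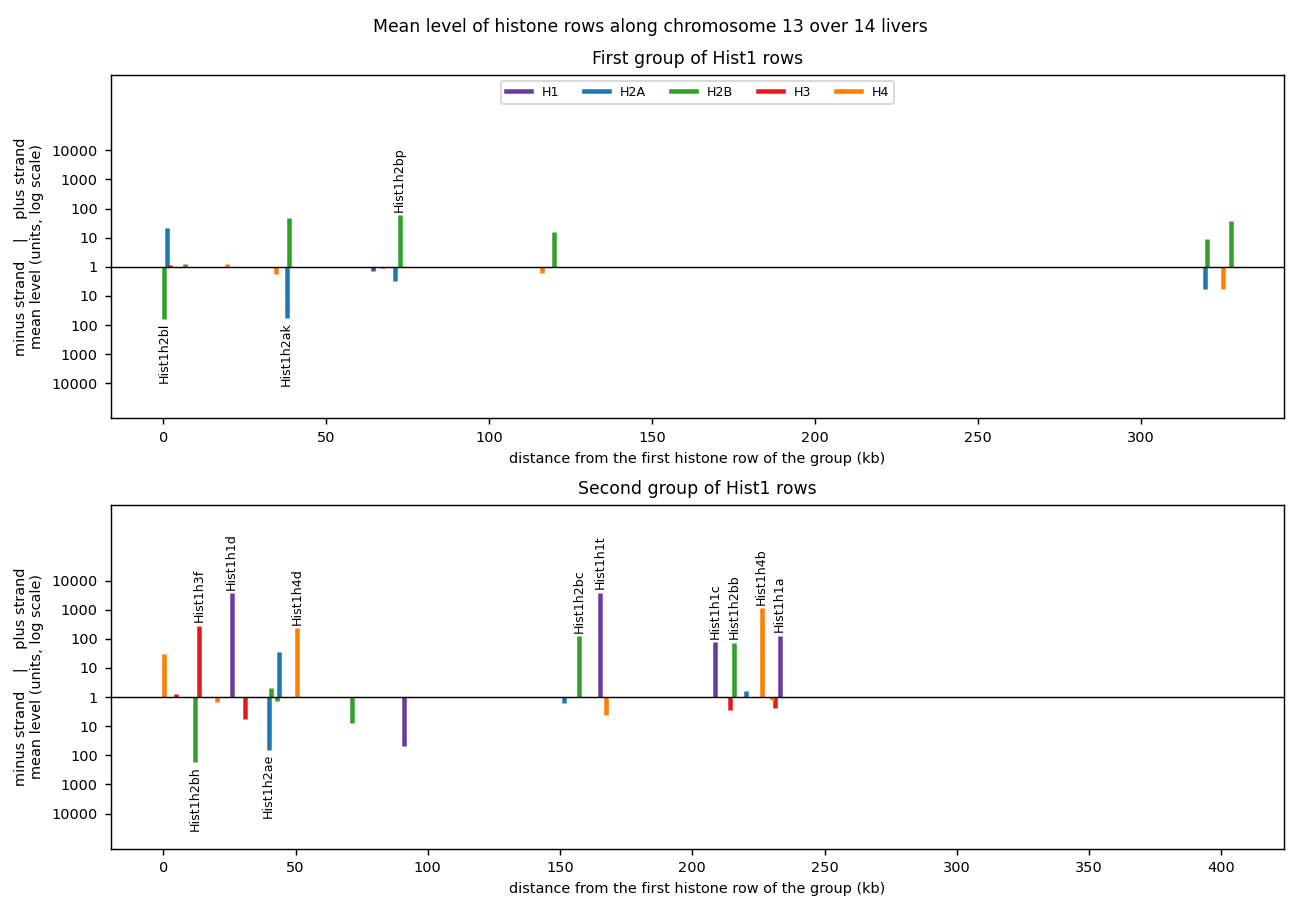
Mean level over the 14 livers (units, log scale, from the floor of 1) of each Hist1 row on chromosome 13, as a vertical line at its distance in kb from the first histone row of its group, upward for the plus and downward for the minus strand, coloured by class; rows at the floor show no line, and Hist1h2al, which lies far from both groups, is left out. The tall lines of Hist1h1t, Hist1h1d and Hist1h4b, with means of 3857, 3611 and 1126 units, all stand on the plus strand of the second group.

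Among the core histones, the H4 row Hist1h4b (ENSMUSG00000069266, mm9 chr13:23848806-23849296, plus strand) was highest. It had 873.5, 990.2, 1139.7, 1166 and 1107 units in HFWD+sugar livers, 1288, 1256, 1148, 996.8 and 999.5 in HFWD livers and 1309, 968.6, 1091 and 1425 in chow livers. The groups overlapped. On the other strand it overlaps a lincRNA gene, 4930558J22Rik, whose level was not analysed here. Hist1h4d (ENSMUSG00000061482, mm9 chr13:23673467-23673859, plus strand), of the same class, had 265.8, 205.9, 207.3, 362.8 and 276 units in HFWD+sugar livers, 228.4, 217.5, 314.5, 249.2 and 237.7 in HFWD livers and 107.7, 212.3, 155.6 and 219.2 in chow livers. Chow 1 and chow 3 were below every other liver, and the other chow livers lay among the Western-diet livers. Hist1h3f (ENSMUSG00000059309, mm9 chr13:23635921-23636924, plus strand) was the only H3 row that averaged at least 100 units. It had 301.5, 245.1, 294.7, 407.6 and 286.5 units in HFWD+sugar livers, 261.2, 295.3, 370.0, 273.5 and 269.3 in HFWD livers and 191.7, 335.1, 213.2 and 178.1 in chow livers, and the groups overlapped through chow 2. The H2A row with the highest mean was Hist2h2ac (ENSMUSG00000068855, mm9 chr3:96024284-96024803, minus strand), with 127.2, 141.1, 161.2, 212.1 and 157.8 units in HFWD+sugar livers, 178.6, 171.4, 221.8, 128.9 and 142.6 in HFWD livers and 171.8, 358.3, 201.2 and 185 in chow livers. Its value in chow 2 was above that of every other liver.

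Of the H2B rows, 3 averaged at least 100 units. Hist2h2bb (ENSMUSG00000050936, mm9 chr3:96073644-96082924, plus strand) had 341.8, 352.5, 302.5, 465 and 468.8 units in HFWD+sugar livers, 249.2, 341.3, 446.7, 335 and 364.4 in HFWD livers and 187.2, 297.2, 230.5 and 267.2 in chow livers. All HFWD+sugar livers were above all chow livers, and HFWD 1 lay among the chow livers. Hist1h2bh (ENSMUSG00000064168, mm9 chr13:23634793-23635228, minus strand) had 188.3, 194.7, 146, 247.4 and 182.3 units in HFWD+sugar livers, 199.3, 157.1, 194.5, 179.5 and 142.6 in HFWD livers and 118, 180.4, 158.5 and 150.7 in chow livers. Hist1h2bc (ENSMUSG00000018102, mm9 chr13:23776068-23784357, plus strand) had 111.1, 118.4, 142.2, 140.9 and 106.8 units in HFWD+sugar livers, 122.4, 105, 130.7, 91.11 and 155.8 in HFWD livers and 135.9, 148.6, 85.75 and 116.5 in chow livers. In both of these rows the groups overlapped.

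Genes of H2A and H2B often share a promoter, since they start back to back on opposite strands. There were 12 such pairs of members, with at most 500 bases between them, and in 9 of them a row averaged at least 10 units. Per kb of exon the rows of 8 of these 9 pairs differed at least 2-fold, with rows at the floor taken at its value, and the plus-strand row was the higher in 5 of the 8. Hist2h2ac averaged 352 units per kb and its partner Hist2h2be 0.576. Hist1h2bc averaged 166 units per kb and Hist1h2ac 0.623, and Hist1h2bj averaged 77.8 while Hist1h2ag was at the floor in every liver. Hist2h2be and Hist1h2ac averaged 1.51 and 1.55 units and were above the floor in 2 and 5 livers. Their values per kb are thus close to the floor divided by exonic lengths of 2618 and 2482 bases. In units, the ratio of Hist2h2ac to Hist2h2be was 121, and per kb it was 611. In the pair of Hist1h2bp and Hist1h2an, whose shared promoter is printed above, the levels were 82.9 and 7.61 units per kb. Hist1h2bl reached 163 units per kb and Hist1h2ai 20.4. The exception was the pair of Hist1h2bn with 124 and Hist1h2ak with 114 units per kb, a ratio of 1.09.

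**Figure D2:**
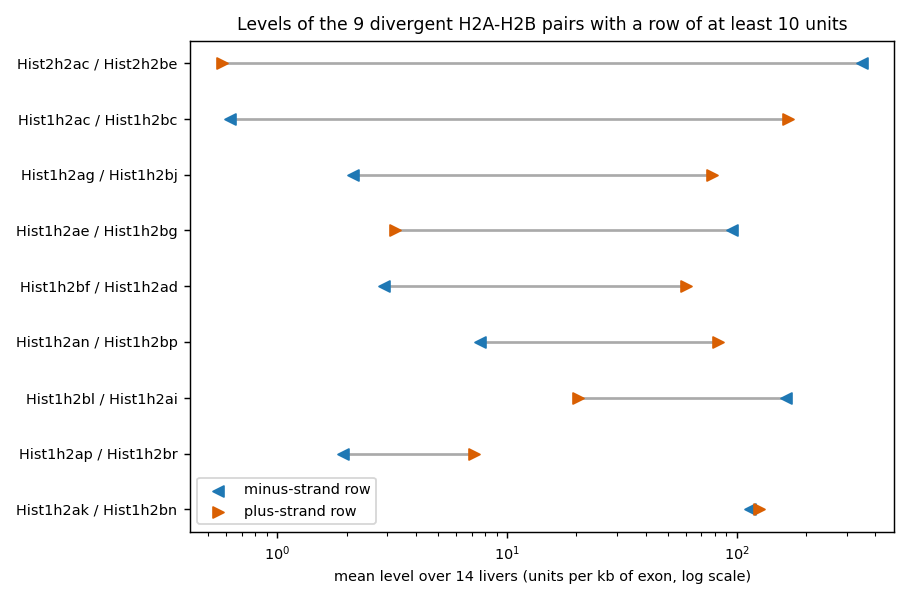
Mean level over the 14 livers (units per kb of exon, log scale) of the minus-strand and the plus-strand row of the 9 divergent H2A and H2B pairs in which a row averaged at least 10 units, joined by a line. The widest gap is that of Hist2h2ac, at 352 units per kb, and Hist2h2be, at 0.576, and the points of Hist1h2bn and Hist1h2ak nearly touch. Hist2h2be and Hist1h2ac averaged 1.51 and 1.55 units, near the floor of 1, so their points depend on their exonic length.

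Copies set a limit on such comparisons. The share of 100-base windows of a row found once in the genome had a median of 64.8%, was 100% for 10 members, below 50% for 22 and 0% for 6. Neither Hist2h2aa2 nor Hist2h2aa1 had a unique window, and they averaged 38.8 and 1.2 units. The same held for Hist1h2br and Hist1h2bq, which averaged 15.95 and 1.02 units. Such a split between rows without unique windows cannot be told apart from the way reads with several matches were counted. Of the rows called below, Hist1h1a and Hist2h2bb were unique in 100% of their windows, Hist1h1d in 98.4%, Hist1h4i in 78.3%, Hist1h2bb in 63.8%, Hist1h2bp in 62.8%, Hist1h2bl in 37.9% and Hist1h2an in 16.7%.

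Taken as a sum, the histone rows reached 11346 ± 656 units in HFWD+sugar livers, 11404 ± 770 in HFWD livers (SD, n = 5 each) and 9816 ± 860 in chow livers (SD, n = 4). Divided by the median of the tested rows of each library, these sums were 201 ± 15.3, 224 ± 23.6 and 201 ± 13.7 in the same order, so the HFWD+sugar and chow means were nearly equal on that scale. Without the 3 highest rows the sums were 2588 ± 481 units in HFWD+sugar livers, 2402 ± 345 in HFWD livers and 1937 ± 483 in chow livers. The H2B rows summed to 1111 ± 217 units in HFWD+sugar livers, 970 ± 152 in HFWD livers and 718 ± 141 in chow livers. The H2A rows summed to 449 ± 99.7, 434 ± 84.6 and 446 ± 160 units in that order. No p-value is given for sums over chosen rows. Of the 68 members, 36 to 43 were above the floor in HFWD+sugar livers, 35 to 43 in HFWD livers and 31 to 38 in chow livers, the fewest in chow 4, where a read was worth most. In bulk liver, fewer cells of a type and less RNA per cell cannot be told apart.

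**Figure D3:**
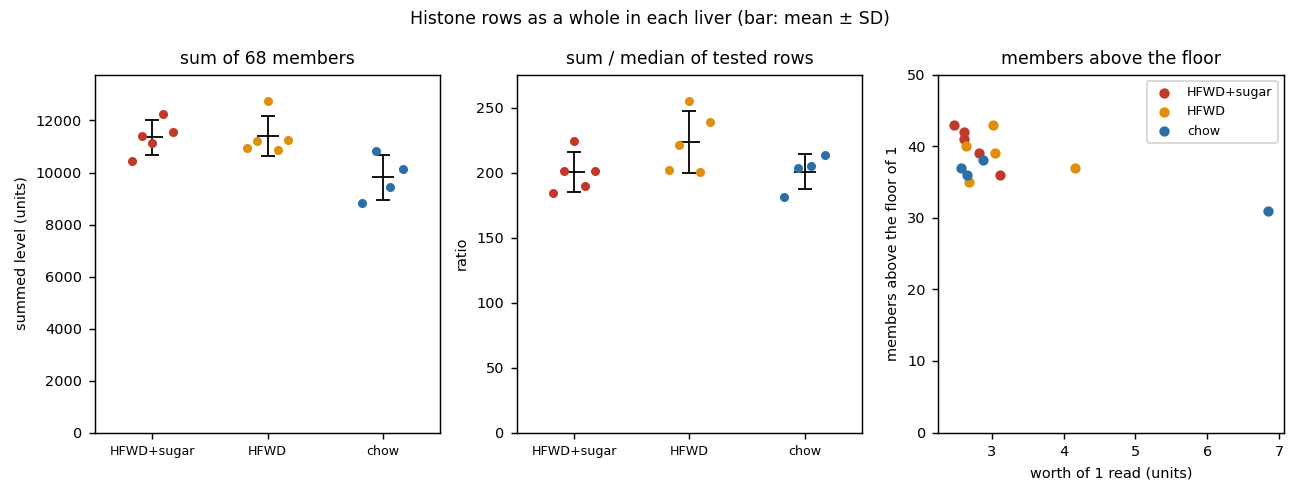
Each point is a liver and each bar the mean ± SD of a diet: summed level of the 68 histone rows (units), that sum divided by the median of the tested rows of its library (a ratio), and the number of members above the floor against the worth of 1 read (units). The summed level averaged 11346 units in HFWD+sugar livers, 11404 in HFWD livers and 9816 in chow livers, and chow 4, with 31 members above the floor, stands apart on the right at 6.85 units a read.

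The first comparison set HFWD+sugar livers against chow livers, for the combined effect of the Western diet and the sugar. The rows that rose were Hist1h1a and Hist1h1d of 5 tested linker rows, Hist1h2bl, Hist2h2bb and Hist1h2bb of 12 tested H2B rows, the H2A row Hist1h2an and the H4 row Hist1h4i, and differences between classes were not tested. Rows were tested with limma on log2(value + 1) with Benjamini-Hochberg adjustment over all 14770 rows above the floor in at least 4 livers, and "rose" or "called" means an adjusted p under 0.05. Of the 43 histone rows tested, 7 rose and 0 fell, or 16.3% higher, where 9.05% of all tested rows were called, 5.67% higher and 3.38% lower. The median log2 difference was 0.45 over the histone rows and 0.12 over all tested rows. Of the 43, 34 were above 0 (26 of 43 after centring or after quantile normalization), where 8899 of all 14770 tested rows were above 0 as deposited. Histone rows whose HFWD+sugar values all lay above the chow values numbered 5, or 11.6%, against 5.96% of all tested rows. Leaving out 1 liver moved the count of histone calls from 7 to 2 (Hist1h1a and Hist1h4i, without chow 1 or without HFWD+sugar 4), 3 (without chow 3 or HFWD+sugar 2), 4 (without HFWD+sugar 5) or 12 (without chow 2), and without both chow 2 and chow 4 it was 7, of which 4 were among the first 7. Smaller changes are not listed here: the calls of Hist1h1d and Hist1h2bb, for example, both ended without HFWD 1, HFWD 2 or HFWD 5. The other 25 members, 1 of class H1, 8 of H2A, 6 of H2B, 6 of H3 and 4 of H4, were left out of the fit, with means of at most 1.62 units. The filter did not use the diet, but a row at the floor in all chow livers, as 3 tested histone rows were, could pass it only through livers on a Western diet. One of these, Hist1h2an, is among the 7 calls. It was not tested when a row had to be above the floor in at least 10 livers, where 6 histone rows were called. Hist1h4i, also called, was above the floor in chow 2 alone among chow livers, so it too needed Western-diet livers to pass. The shares of 16.3% and 11.6%, both with Hist1h4i among their rows, are therefore given as descriptions.

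All 5 tested linker histone rows had a positive difference (4 of 5 after centring on library medians), with a median of 0.62, and 2 rose. Hist1h1a (ENSMUSG00000049539, mm9 chr13:23855537-23856283, plus strand), a linker histone of dividing cells, had 143, 138.2, 159, 224.2 and 132.8 units in HFWD+sugar livers, 116.3, 211.4, 120.6, 109.9 and 118.8 in HFWD livers and 79.37, 71.65, 69.15 and 109.6 in chow livers. No HFWD+sugar or HFWD liver was as low as a chow liver, though HFWD 4, at 109.9 units, nearly met chow 4, at 109.6. Means were 159 ± 37.5 units in HFWD+sugar livers (SD, n = 5) and 82.4 ± 18.6 in chow livers (SD, n = 4), a log2 difference of 0.94 (SE 0.22, limma adjusted p = 0.0155). The call was lost without chow 3 (adjusted p = 0.0526) and held with each other liver left out. Hist1h1d averaged 3817 ± 241 units in HFWD+sugar livers and 2993 ± 475 in chow livers, a difference of 0.36 (SE 0.11, limma adjusted p = 0.0491). This call held only when chow 2, chow 3 or HFWD 3 was the liver left out. Omitting any other of the 14 livers in turn, 11 in all, gave adjusted p-values of 0.0503 to 0.151. Centred on library medians, the difference was 0.15 and not called (limma adjusted p = 0.516). Hist1h1c, a linker histone found also in resting cells, averaged 97.2 units in HFWD+sugar livers and 59.4 in chow livers (log2 difference 0.74, limma adjusted p = 0.1). Hist1h1t, at 3886 units in HFWD+sugar livers and 3688 in chow livers, differed by 0.08, with a 95% interval from -0.09 to 0.26.

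Of the H2B rows, all 12 tested had a positive difference (10 of 12 after centring or after quantile normalization, with medians of 0.59 and 0.56), with a median of 0.80, and 3 rose. The 12 are not separate readings, because H2B rows share sequence. Hist1h2bc, Hist1h2bj and Hist1h2bp each shared windows of 100 bases with 8 other H2B members on the same strand. Members on the opposite strand were not counted there. Unique windows made up 0% of Hist1h2br, 29.7% of Hist1h2bk, 37.9% of Hist1h2bl and 47.9% of Hist1h2bn, but 100% of Hist2h2bb. Hist1h2bl (ENSMUSG00000069314, mm9 chr13:21807632-21808012, minus strand) had 65.28, 87.45, 83.45, 155.8 and 83.33 units in HFWD+sugar livers, 33.22, 78.53, 60.77, 26.8 and 59.41 in HFWD livers and 17.95, 50.42, 51.86 and 13.7 in chow livers. Each HFWD+sugar liver was above each chow liver, and the HFWD livers overlapped both. The means were 95.1 ± 35.0 units in HFWD+sugar livers and 33.5 ± 20.5 in chow livers, a log2 difference of 1.64 (SE 0.42, limma adjusted p = 0.0221). Without chow 1 the adjusted p was 0.0684, and without HFWD+sugar 4 it was 0.0682. Hist2h2bb averaged 386 ± 76.1 units in HFWD+sugar livers and 246 ± 47.5 in chow livers (log2 difference 0.65, SE 0.18, limma adjusted p = 0.0342). The call ended with each of 5 livers left out in turn (HFWD+sugar 2, 4 and 5, and chow 1 and 3), at adjusted p-values of 0.0523 to 0.103.

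Hist1h2bb (ENSMUSG00000075031, mm9 chr13:23838603-23839071, plus strand), of class H2B, had 89.22, 118.5, 97.27, 166.4 and 49.48 units in HFWD+sugar livers, 66.44, 84.57, 82.04, 34.84 and 58.09 in HFWD livers and 46.16, 68.99, 31.69 and 34.25 in chow livers. HFWD+sugar 5 lay below chow 2, so these diets overlapped. The means were 104 ± 42.8 units in HFWD+sugar livers and 45.3 ± 17.0 in chow livers (log2 difference 1.15, SE 0.34, limma adjusted p = 0.0466). The call held only without chow 2, HFWD 4 or HFWD+sugar 5. Leaving out any of the other 11 livers gave adjusted p-values of 0.0526 to 0.134. Hist1h2br, at 22.1 units in HFWD+sugar livers and 6.90 in chow livers, had the highest log2 difference of the class, 2.03, with a 95% interval from 0.55 to 3.50, and was not called (limma adjusted p = 0.0792).

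Classes H2A, H3 and H4 gave 2 calls. In H4, 7 of 9 rows were positive, with a median of 0.50 (6 of 9 after centring and 5 of 9 after quantile normalization), and Hist1h4i rose (ENSMUSG00000060639, mm9 chr13:22132685-22133221, minus strand). It had 12.43, 4.232, 7.824, 4.947 and 13.02 units in HFWD+sugar livers, 4.153, 6.041, 12.15, 5.359 and 5.281 in HFWD livers and 1, 2.654, 1 and 1 in chow livers. Every Western-diet value was above every chow value, of which 3 were at the floor. The separation may be one of scaled values: HFWD 1 at 4.15 units and chow 2 at 2.65 each stood at the value taken as 1 read, which in chow 4 was 6.85 units. The means, 8.49 ± 4.10 units in HFWD+sugar livers and 1.41 ± 0.827 in chow livers, stand for a few reads (log2 difference 1.91, SE 0.41, limma adjusted p = 0.00926). This call held with each of the 14 livers left out, at adjusted p-values of at most 0.0314, but the size depends on the offset, at 2.59 with none and 0.67 with an offset of 10. In H2A, 9 of 11 rows were positive, with a median of 0.20, but 5 of 11 after either rescaling, with medians of -0.01 and -0.05. Hist1h2an (ENSMUSG00000069309, mm9 chr13:21878695-21879087, minus strand) had 1, 10.35, 5.216, 7.421 and 5.208 units in HFWD+sugar livers, 1, 1, 3.039, 1 and 2.641 in HFWD livers and 1, 1, 1 and 1 in chow livers. All chow livers and HFWD+sugar 1 were at the floor, so the log2 difference of 1.57 (limma adjusted p = 0.0368) depends on the offset, and the row averaged 5.84 ± 3.43 units in HFWD+sugar livers. The call ended without chow 1, chow 2, chow 3 or any of HFWD+sugar 2 to 5, at adjusted p-values of 0.0517 to 0.0924. In H3, 1 of 6 rows was positive, in the fit and after either rescaling, and none of the 6 was called (0 of 6 in limma, with 2 at an unadjusted p under 0.05). The only positive H3 row was Hist1h3f, at 307 units in HFWD+sugar livers and 229.5 in chow livers (log2 difference 0.44, limma adjusted p = 0.143). Hist2h3b lay at 65.9 units in HFWD+sugar livers and 126 in chow livers (log2 difference -0.83, limma adjusted p = 0.2).

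Counts of calls moved with scale. Centred on library medians, 3 histone rows were called higher (Hist1h2bl, Hist1h4i and Hist1h1a) and 1 lower (Hist2h2ac), and over all rows the split was 420 higher and 1151 lower, against 837 and 499 as deposited. The calls of Hist1h1d, Hist2h2bb (0.44, limma adjusted p = 0.124), Hist1h2bb (0.94, 0.0762) and Hist1h2an (1.36, 0.0625) ended. After this centring, the median difference of all tested rows was -0.09 and that of the histone rows 0.24. Without a filter on low values, Hist1h4i and Hist1h1a were the 2 histone rows called. Measured from the median of all rows as deposited, the histone median was 0.33. Quantile normalization called 4 histone rows, all higher.

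**Figure D4:**
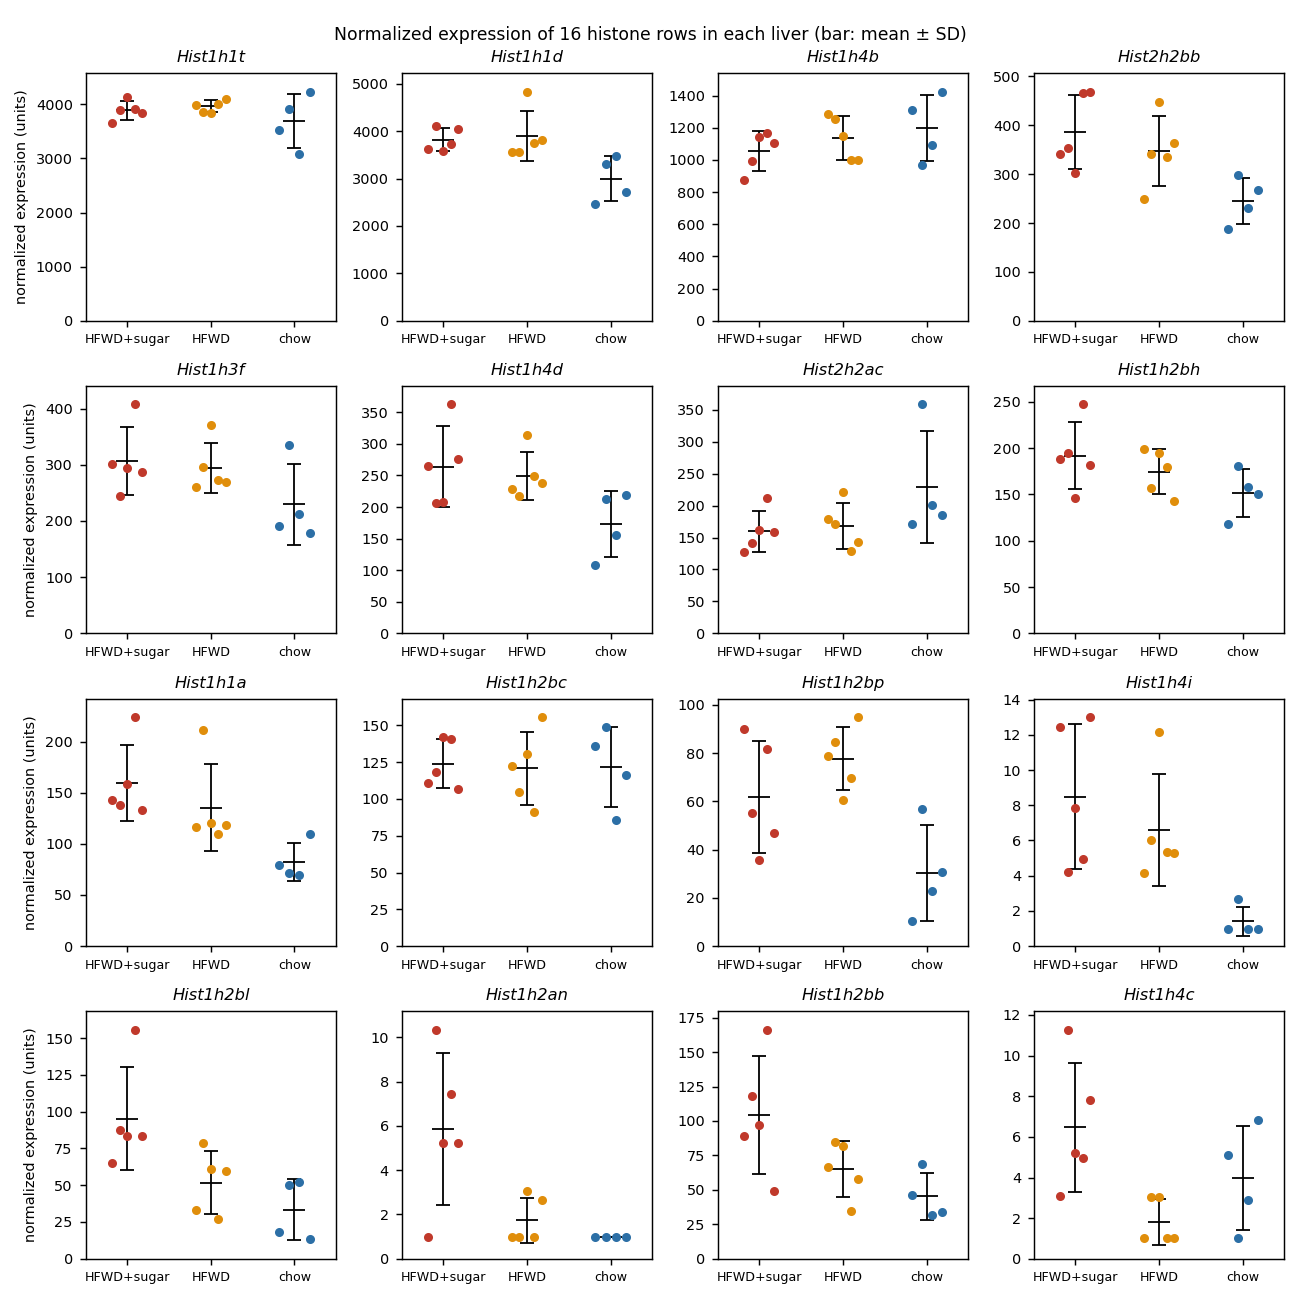
Normalized expression (units) of 16 histone rows in each liver, by diet, with the mean ± SD of each diet as a bar; the rows are the 10 highest means, those called in a comparison, and those with the smallest p. Hist1h1d and Hist1h4i lie higher in every liver on a Western diet than in any chow liver, whereas Hist1h1t and Hist1h4b overlap between diets.

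The second comparison set HFWD livers against chow livers, for the Western diet without sugar. Of the 43 histone rows, 2 rose and 0 fell: the H2B row Hist1h2bp and the H4 row Hist1h4i. That is 4.65% higher, where 3.38% of all tested rows were called, 2.44% higher and 0.934% lower, so the share was near that of all rows. It is a description, because Hist1h4i needed Western-diet livers to pass the filter. The count of histone calls was 0 without chow 1, HFWD 2, HFWD 3, HFWD 4 or HFWD 5, 1 without chow 3 or HFWD 1, and 3 without chow 2 or chow 4. The median log2 difference was 0.34 over the histone rows and 0.04 over all tested rows. Of the 43, 32 were above 0 (31 after centring and 30 after quantile normalization), where 8123 of all 14770 tested rows were above 0 as deposited. Both comparisons share the 4 chow livers, so values common to them are not independent.

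Hist1h2bp (ENSMUSG00000069308, mm9 chr13:21879330-21881082, plus strand) had 90.15, 55.01, 35.78, 81.63 and 46.88 units in HFWD+sugar livers, 78.9, 84.57, 60.77, 69.67 and 95.06 in HFWD livers and 10.26, 57.05, 23.05 and 30.83 in chow livers. Every HFWD liver was above every chow liver, while HFWD+sugar livers overlapped chow 2. The means were 77.8 ± 13.2 units in HFWD livers and 30.3 ± 19.8 in chow livers, a log2 difference of 1.55 (SE 0.39, limma adjusted p = 0.0349). The call ended without chow 1, chow 3 or any 1 HFWD liver, at adjusted p-values of 0.0502 to 0.108. In HFWD+sugar livers the mean was 61.9 units, and the difference of 1.16 from chow was not called (limma adjusted p = 0.0708). Hist1h4i averaged 6.598 ± 3.18 units in HFWD livers and 1.41 ± 0.827 in chow livers (log2 difference 1.63, SE 0.41, limma adjusted p = 0.0385). Its call ended without chow 1, chow 3, HFWD 2, HFWD 3, HFWD 4 or HFWD 5, at adjusted p-values of 0.0517 to 0.110. With an offset of 10 the difference was 0.52 and not called (limma adjusted p = 0.113), and with none it was 2.26. The call also ended after centring (limma adjusted p = 0.0705), after quantile normalization (0.0656), without a filter on low values (0.0541) and with the libraries of the 2 groups only (0.0624).

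By class, all 5 linker rows were positive against chow, with a median of 0.39, and none of the 5 was called (0 of 5 in limma, with 3 at an unadjusted p under 0.05). Hist1h1d, at 3901 units in HFWD livers and 2993 in chow livers, differed by 0.39 (limma adjusted p = 0.0658), and Hist1h1a, at 135 units in HFWD livers and 82.4 in chow livers, by 0.69 (limma adjusted p = 0.107). In both rows the diets did not overlap. Such separation held for 4 histone rows, all higher on HFWD, or 9.30%, against 3.84% of all tested rows, where 2.44% were called higher. Hist1h4i, which needed Western-diet livers to pass the filter, is among the 4. Of the H2B rows, 10 of 12 were positive, with a median of 0.51, of H2A 7 of 11, of H3 5 of 6 (4 after centring and 3 after quantile normalization) and of H4 5 of 9. Hist2h4, of class H4, had the lowest difference of all members, with 1.73 units in HFWD livers and 5.12 in chow livers (log2 difference -1.18, limma adjusted p = 0.289).

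**Figure D5:**
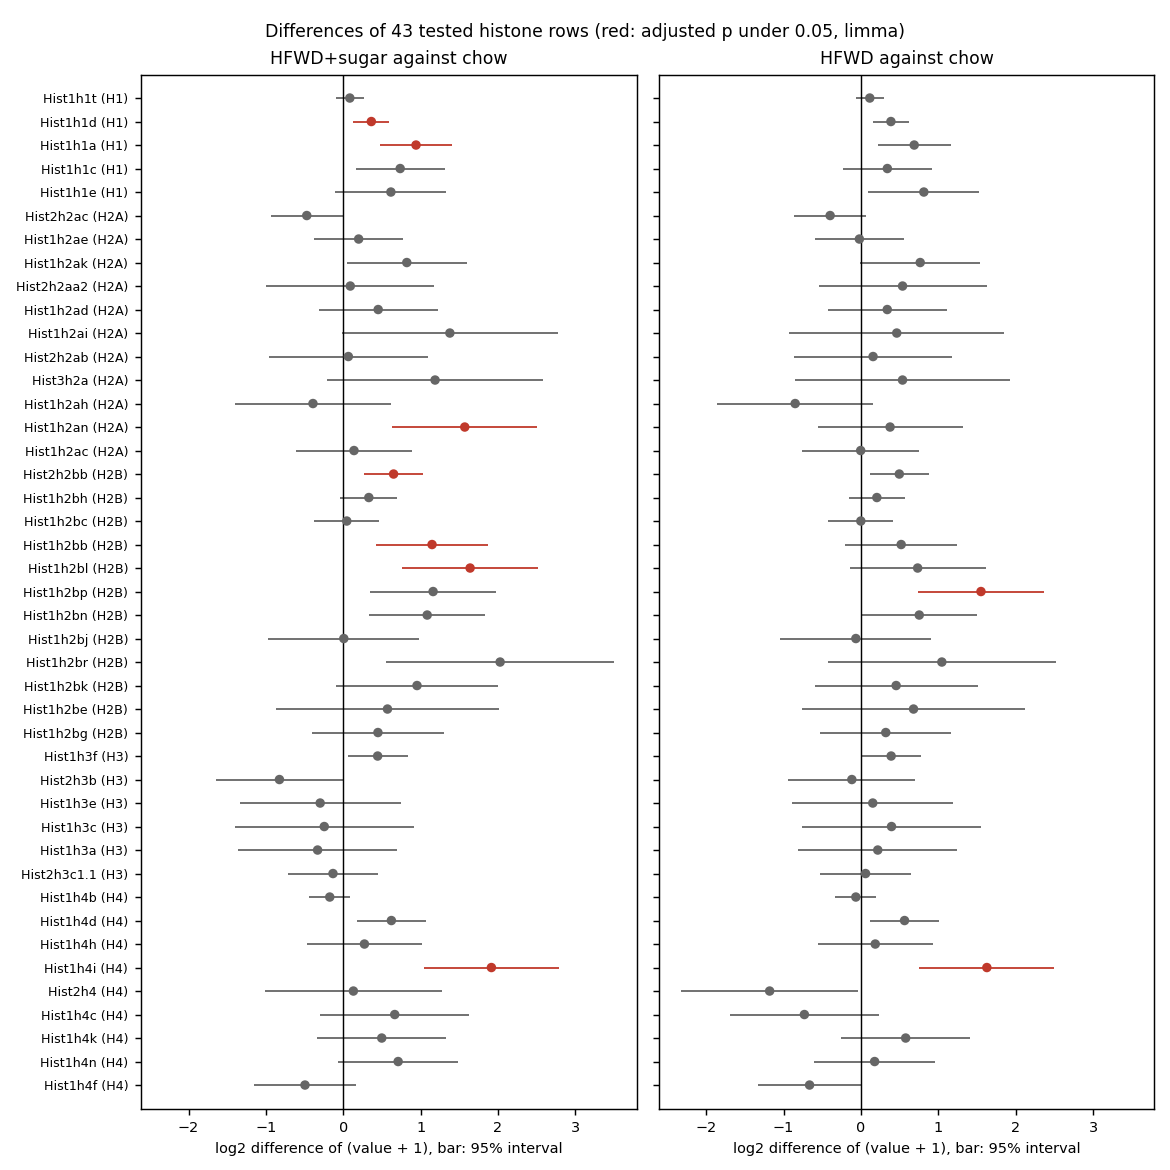
Log2 difference of (value + 1) with its 95% interval for the 43 tested histone rows in HFWD+sugar livers against chow livers and in HFWD livers against chow livers, by class and then by falling mean level; red marks an adjusted p under 0.05. All 12 H2B rows, many of which share sequence, lie above 0 in HFWD+sugar against chow (10 of 12 after either rescaling), where 7 rows in all are red, and 2 rows are red in HFWD against chow.

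The third comparison set HFWD+sugar livers against HFWD livers, which differ by their labels in the sugar in the water. No histone row was called (0 of 43), nor was any of the 14770 tested rows in limma (0%, 0% higher and 0% lower), while 4 histone rows and 1273 of all rows had an unadjusted p under 0.05. Without HFWD 1, 1 row of the table was called and 0 histone rows. The smallest p belonged to Hist1h4c (ENSMUSG00000060678, mm9 chr13:23789929-23790323, minus strand), of class H4, with 3.109, 11.28, 5.216, 4.947 and 7.813 units in HFWD+sugar livers, 1, 3.02, 3.039, 1 and 1 in HFWD livers and 5.129, 1, 2.881 and 6.85 in chow livers. The log2 difference was 1.40 (95% interval 0.49 to 2.31, limma adjusted p = 0.521). The values did not overlap, but HFWD+sugar 1, HFWD 2 and HFWD 3 each stood at the commonest low value of its library. If that value is 1 read, those libraries differ in this row in scaling and not in reads. Chow livers spanned both diets. Next was Hist1h2an, at 5.84 units in HFWD+sugar livers and 1.74 in HFWD livers (log2 difference 1.19, limma adjusted p = 0.549). The rows called against chow gave differences of 0.25 for Hist1h1a (95% interval -0.19 to 0.70), -0.02 for Hist1h1d (-0.24 to 0.20), 0.91 for Hist1h2bl (0.08 to 1.74), 0.15 for Hist2h2bb (-0.20 to 0.51), 0.63 for Hist1h2bb (-0.06 to 1.31), 0.29 for Hist1h4i (-0.53 to 1.11) and -0.39 for Hist1h2bp (-1.16 to 0.38). A p above the threshold does not show equal levels.

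Other genes of histone supply and of the cell cycle were read beside the members. Of 12 genes that transcribe or process histone mRNA (such as Npat, Slbp and Lsm11), 12 histone chaperones (such as Nasp and Asf1b) and 10 replication-independent histones (such as H2afz and H3f3b), 0 were called in each of the 3 comparisons. The replication-independent histones had a median log2 difference of 0.33 in HFWD+sugar livers against chow livers and 0.19 in HFWD livers against chow livers, beside 0.45 and 0.34 for the canonical rows and 0.12 and 0.04 for all tested rows. The medians were 0.05 and 0.06 for the processing genes and 0.09 and 0.20 for the chaperones. Of 21 tested genes of S phase and mitosis, 1 rose and 1 fell in HFWD+sugar livers against chow livers and 0 were called in the other comparisons. Of all tested rows, 5.67% rose and 3.38% fell in HFWD+sugar livers against chow livers. In HFWD livers against chow livers 2.44% rose and 0.934% fell. Mcm4, a subunit of the replicative helicase, averaged 323 units in HFWD+sugar livers and 215 in chow livers (log2 difference 0.62, limma adjusted p = 0.0367). Ccne2, a cyclin of entry into S phase, averaged 1883 units in HFWD+sugar livers and 2558 in chow livers (log2 difference -0.44, limma adjusted p = 0.00836). The median log2 difference of the tested genes of this list was 0.08 in HFWD+sugar livers against chow livers. The summed level of the list spanned 24329.5 to 31499 units in HFWD+sugar livers, 27185 to 28937 in HFWD livers and 25288.5 to 30692 in chow livers. Such a sum is weighted to its highest rows and is not read as a level of dividing cells. Mki67, the proliferation marker, averaged 9.51 units in HFWD+sugar livers, 8.33 in HFWD livers and 5.11 in chow livers and was not called. Whether S-phase cells contributed to the histone differences was not tested.

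Markers of other liver cells were compared with the same fit. Beside their counts stand 9.05% of all tested rows called in HFWD+sugar livers against chow livers and 3.38% in HFWD livers against chow livers. Of 6 Kupffer cell markers, Cd5l, a secreted protein of macrophages, rose in HFWD+sugar livers against chow livers, at 106 against 35.3 units (log2 difference 1.49, limma adjusted p = 0.0099), and the list summed to 480 to 919 units in HFWD+sugar livers, 465 to 625 in HFWD livers and 384 to 655 in chow livers. Of 4 tested T and NK cell markers, Cd8a, a chain of the T cell co-receptor CD8, fell in HFWD+sugar livers, at 14578 against 17703 units in chow livers (log2 difference -0.28, limma adjusted p = 0.037). The other 3 tested markers of that list were not called and had positive differences, among them Cd3d, a chain of the T cell receptor complex, at 31.8 against 10.03 units (log2 difference 2.02, limma adjusted p = 0.0564), and the median of the list was 0.13. Its summed level is almost entirely the Cd8a row and is not read as a level of T cells. Of 8 hepatocyte markers, Tdo2, which breaks down tryptophan, rose while Cps1, of the urea cycle, and Tat, which breaks down tyrosine, fell in HFWD+sugar livers against chow livers, and Tdo2 rose while Cps1 fell in HFWD livers. No marker of B cells (1 tested), erythroid cells (5), stellate cells (5), endothelium (5) or cholangiocytes (4) was called in any comparison (0 of each), and none of 4 neutrophil markers passed the filter, with sums of 4 to 5.65 units. The median log2 difference of the erythroid markers was 1.17 in HFWD+sugar livers against chow livers and 0.81 in HFWD livers against chow livers, and 4 of the 5, the globin rows, were positive on HFWD+sugar. Their list summed to 268 to 394 units in HFWD+sugar livers, 267 to 357 in HFWD livers and 283 to 463 in chow livers, most of it in Alas2, an enzyme of heme synthesis, at 274 units in HFWD+sugar livers and 343 in chow livers. The endothelial median was 0.56 on HFWD+sugar and -0.02 on HFWD, the B cell marker tested 1.03 and 0.83, and the stellate median 0.16 and -0.15. The part of cell composition in the histone differences was not tested.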

How the data were processed

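Total RNA of 14 mouse livers was sequenced after removal of ribosomal RNA with a Ribo-Zero Gold kit (Yeast), with 12 PCR cycles and paired reads of 100 bases, per the labels' protocols. The deposited signal is a normalized expression value per gene with a floor of 1. FastQC, SAMtools, TopHat2 2.0 and the mm9 build are named in the submitters' processing notes. Not given in the sources used here were the read counter, its strand setting and the scaling. Values were used as deposited, and nothing shows that they are counts, so no count test was run.

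limma 3.58.1 in R 4.3.3 fitted log2(value + 1) with 3 diet means in all 14 libraries together, with a variance trend, for the 14770 of 22850 rows above the floor in at least 4 libraries. Tests were two-sided and p-values were adjusted by Benjamini-Hochberg within a comparison, over every tested row, at 0.05, and differences on this scale understate the change of low rows. Values in each library are given for the 10 histone rows with the highest mean, those called, and the 2 with the smallest p of each comparison. Of the 68 members, 66 had the same coordinates in the mm9 annotation (GENCODE vM1), which gave hairpins, neighbours within 10 kb and unique windows of 100 bases. Promoters came from RefSeq (GRCm38.p6). The members and gene lists were chosen with earlier results of these data known. Tables and figures were made with pandas 2.3.3, numpy 2.4.6 and matplotlib 3.10.9 in Python 3.11.15, and R data were read with the package data.table, version 1.17.8. Alternatives changed the offset, filter, scaling, library weights, variance trend and the libraries in the fit.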

Additional observations from a re-analysis of the deposited data

Results flagged for a closer look

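Within diets of 4 or 5 livers, a value was set apart when its gap to the nearest other value passed Dixon's 95% limit for the range of its group. This held in 9 of 56 groups of values. Chance gives about 5% of independent groups with no ties, but the count cannot be set against it: the groups of sums hold the same rows again, and 3 of the 4 chow values of Hist1h4i are tied at the floor, where any other value passes. HFWD 3 had 4834 units of Hist1h1d, next to 3810, and 12.2 units of Hist1h4i, next to 6.04. Its summed level of the 68 histone rows was 12748 units, next to 11243. HFWD+sugar 4 had 224 units of Hist1h1a, next to 159, and 156 units of Hist1h2bl, next to 87.5. Its summed level without the 3 highest rows was 3422 units, next to 2561. HFWD 2 had 211 units of Hist1h1a, next to 121. Chow 2 had 358 units of Hist2h2ac, next to 201, and 2.65 units of Hist1h4i, where the other chow livers were at the floor.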

How the results depend on the processing

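No paired analysis was possible because the replicate numbers of the libraries were given in accession order and pair nothing. Calls below are rows of the whole table and, in brackets, histone rows. Against chow, HFWD+sugar gave 1336 (7) and HFWD 499 (2). Without a filter on low values the counts were 774 (2) and 309 (0), with 2 diets alone in the fit 745 (3) and 240 (0), without a variance trend 745 (4) and 246 (1), and with library weights 2174 (11) and 1021 (6). The weights were lowest for chow 4 (0.349) and chow 2 (0.444). Centring on library medians gave 4 histone calls for HFWD+sugar, and 275 (1) for HFWD. Quantile normalization gave 4 and 1 histone calls, and an offset of 10 gave 1 for HFWD. Without chow 2 and chow 4 together, HFWD gave 916 calls. Leaving out 1 library gave 674 to 1768 (2 to 12) calls for HFWD+sugar and 255 to 1051 (0 to 3) for HFWD. HFWD+sugar against HFWD gave 0 to 1 (0 in each), the 1 without HFWD 1.

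The summed histone level of HFWD+sugar livers was 10491 units after division by library medians and rescaling. Members at 2 or more reads numbered 32.4 in HFWD+sugar, 29.2 in HFWD and 27.75 in chow livers.

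Some uncalled differences changed sign. For HFWD+sugar against chow, Hist1h1t was -0.13 and Hist1h2bc -0.17 after centring, and Hist1h2bc -0.14 after quantile normalization. For HFWD+sugar against HFWD, centring gave -0.091 for Hist1h3f, -0.086 for Hist1h4d, -0.020 for Hist1h2bh and -0.098 for Hist1h2bc. Quantile normalization gave 0.041 for Hist1h1t, 0.049 for Hist1h1d, -0.058 for Hist1h2bc and -0.0071 for Hist1h4i. For HFWD against chow, Hist1h2bc was 0.037 with weights and 0.14 without chow 2 and chow 4. With 1 library left out, Hist1h2bc ran from -0.11 to 0.15 for HFWD+sugar against chow and from -0.16 to 0.10 for HFWD against chow, where Hist1h4b ran from -0.16 to 0.022. For HFWD+sugar against HFWD, Hist1h2bc ran from -0.048 to 0.14, and Hist1h1d from -0.055 to 0.056, Hist1h3f from -0.052 to 0.14, Hist1h4d from -0.064 to 0.15 and Hist2h2ac from -0.18 to 0.032. The cause of these changes was not tested. Depth limits rows below about 10 units, which rest on a few reads.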
